A study of Homo sapiens with 6 samples.

Results

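NF-kB is a family of dimeric transcription factors, and the genes described here are its 5 subunits (RELA, RELB, REL, NFKB1 and NFKB2), the 3 cytoplasmic inhibitors IkB alpha, beta and epsilon (NFKBIA, NFKBIB and NFKBIE) and the 2 nuclear IkB proteins IkB zeta and BCL-3 (NFKBIZ and BCL3). They were chosen by symbol, and all 10 were found among the 59653 genes of the count table. Their RNA was measured by mRNA sequencing in SK-OV3, a human ovarian cancer cell line of wild-type genotype as labelled, in 6 libraries. In 3 of them the cells had been transfected with a pool of siRNAs against the long non-coding RNA PVT1 (siPVT1) and in 3 with a non-targeting pool (siControl), each at 50 nM with RNA taken after 48 h. One siRNA pool was used against PVT1 in a single cell line, so that the lowering of PVT1 and other effects of the pool cannot be told apart.

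In resting cells the cytoplasmic IkB proteins bind NF-kB dimers and keep them out of the nucleus. Signals from receptors such as those for TNF and interleukin-1 activate the IkB kinase complex, which marks the inhibitors for degradation, and the freed dimers bind kB sites in DNA. NFKB1 and NFKB2 encode the precursors p105 and p100, which act as inhibitors themselves until they are processed to p50 and p52. Several genes of the family, NFKBIA foremost, are textbook targets of NF-kB and form its feedback loops.

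Among the 10 genes, the RNAs of the nuclear IkB proteins and of IkB alpha were higher in siPVT1 while those of most subunits moved little. BCL3, NFKBIZ and NFKBIA passed both thresholds used here, an adjusted p-value under 0.05 and a change of at least 2-fold, at log2 fold changes of 2.11, 1.35 and 1.28. NFKB2 rose by 0.86 on the log2 scale, NFKBIB fell by 0.57, REL and NFKB1 rose by 0.40 and 0.18, and RELA, RELB and NFKBIE did not pass the adjusted p-value. With both thresholds 3 of the 10 genes were called higher and 0 lower, against 11.8% of all 19008 tested genes called higher and 9.64% called lower. By the adjusted p-value alone 6 of the 10 were higher and 1 was lower, where 29.5% of all tested genes were higher and 28.4% lower. At an unadjusted p-value under 0.05, edgeR gave 7 higher and 1 lower, where 31.8% of all tested genes were higher and 30.6% lower, and DESeq2 with both thresholds also called 3 higher and 0 lower. All 10 passed the filter on low counts.

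**Figure D1:**
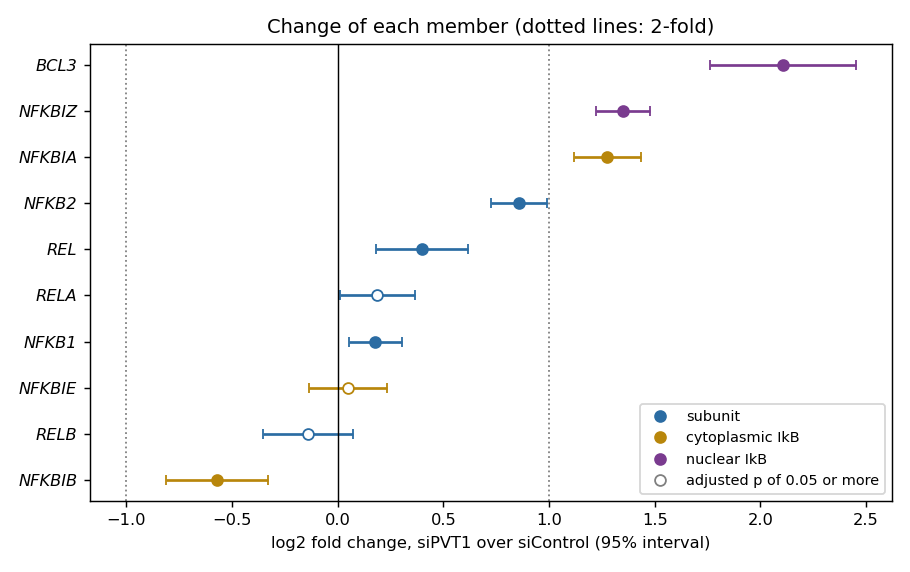
Log2 fold change of each of the 10 genes in siPVT1 over siControl (x axis, with 95% intervals from edgeR), ordered by size on the y axis and colored by role, where open points mark an adjusted p-value of 0.05 or more and dotted lines mark a 2-fold change. BCL3, NFKBIZ and NFKBIA lie wholly beyond the 2-fold line and NFKB2 just inside it, while the other 6 genes lie between −0.57 and 0.40.

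The libraries held between 28383171 and 35059576 counts. PVT1, the targeted RNA, had 3289, 4079.7 and 3368 normalized counts in the siControl libraries and 2344, 2105 and 2057 in the siPVT1 libraries. It was lower by edgeR at −0.72 on the log2 scale (SE 0.097). The labels do not say whether replicates came from separate cultures, so the p-values measure the spread between these libraries, which may be technical. The median log2 fold change of all tested genes was 0.0014 after normalization and −0.15 when libraries were scaled by their total count. Of the genes called, 2248 were higher and 1833 lower after normalization, and 1835 were higher and 2355 lower with the total count. In bulk RNA, fewer cells of a type and less RNA per cell cannot be told apart. Markers of other cell types also differed between the groups, as given at the end.

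The DNA around the start of these genes is shown because NF-kB binds a short motif in DNA and several of the genes are its textbook targets. RefSeq start windows of GRCh38.p14, from 250 bases before to 50 bases after a transcript start, were at hand for 8 of the 10 genes (14 windows). RELB and NFKBIE had none. The kB consensus, 10 bases long (3 G, 1 purine, 2 bases of any kind, 2 pyrimidines and 2 C), was searched on both strands. It occurred in 9 of the 14 windows and in 7 of the 8 genes, while 11.3% of all 35116 windows held it, as did 17.1% of the 11862 tested genes with a window. The 14 windows held between 51.3% and 80.0% G and C, and these shares were not adjusted for base content. Overlapping matches were merged, which left 12 stretches. Of these, 10 are printed, at least 1 for each gene with a match, so that the letters can be set beside the changes. They are written 5′ to 3′ on the strand of the gene, each with 10 bases on either side and the consensus match in capitals, and positions count from 0 at the first transcribed base.
NFKBIA, chr14:35404811-35404840, minus strand, match from −81 to −72 (on the opposite strand): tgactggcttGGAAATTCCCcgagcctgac
NFKBIZ, first start, chr3:101827757-101827786, plus strand, match from −223 to −214: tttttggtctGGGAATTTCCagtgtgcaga
NFKBIZ, second start, chr3:101849265-101849294, plus strand, match from −239 to −230: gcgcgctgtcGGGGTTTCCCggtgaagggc
BCL3, chr19:44748700-44748729, plus strand, match from 2 to 11: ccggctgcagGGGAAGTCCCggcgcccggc
NFKB2, second start, chr10:102394461-102394490, plus strand, match from −107 to −98: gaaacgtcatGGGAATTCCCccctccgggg
NFKB2, second start, chr10:102394490-102394519, plus strand, match from −78 to −69: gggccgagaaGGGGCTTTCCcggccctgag
NFKB2, last start, chr10:102395674-102395703, plus strand, match from −21 to −12: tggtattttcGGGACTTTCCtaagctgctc
REL, chr2:60881517-60881546, plus strand, match from −47 to −38: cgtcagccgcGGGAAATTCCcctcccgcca
NFKB1, first start, chr4:102501300-102501329, plus strand, match from −49 to −40: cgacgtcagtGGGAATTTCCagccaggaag
NFKBIB, second start, chr19:38899931-38899960, plus strand, match from −28 to −19: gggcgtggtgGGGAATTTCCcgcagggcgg

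The match was thus present both at genes that rose and at NFKBIB, which fell, and the same 10 bases occurred at NFKB1, NFKBIZ and NFKBIB and, on the opposite strand, at NFKBIA and REL. No match was found in the windows of RELA. A match describes these letters and does not show that the site was bound in these cells.

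The siControl libraries give the levels of the family in SK-OV3 cells. To compare genes, counts scaled to library size (CPM) were divided by transcript length in kb, with the merged exons of GENCODE v44 as the length. In siControl, NFKBIA was the most abundant at 23.5 ± 1.01 CPM per kb (SD, n = 3), followed by NFKB2 at 19.5 ± 0.318, RELA at 16.2 ± 0.546 and NFKBIZ at 13.9 ± 0.119. NFKBIB and RELB followed at 9.47 ± 0.214 and 9.44 ± 0.507 and did not differ beyond their spread. NFKB1 was at 6.63 ± 0.058 and NFKBIE at 6.12 ± 0.327. REL and BCL3 were lowest, at 2.07 ± 0.104 and 1.96 ± 0.156, again within each other's spread. In siPVT1 the order began with NFKBIA at 56.9 ± 3.53 CPM per kb, then NFKB2 at 35.4 ± 1.49 and NFKBIZ at 35.3 ± 1.09, which overlapped. BCL3 moved from the tenth place to the sixth, at 8.44 ± 1.61, where it overlapped with RELB at 8.58 ± 0.908 and NFKB1 at 7.51 ± 0.205. RELA was at 18.5 ± 1.71, NFKBIB at 6.36 ± 0.870, NFKBIE at 6.34 ± 0.258 and REL at 2.73 ± 0.323, and NFKBIB overlapped with both NFKB1 and NFKBIE. The length used matters most for NFKB1, whose merged exons hold 15679 bases against 4153 in its longest coding transcript. With the latter length its level in siControl was 25.0 ± 0.219 CPM per kb, in the fourth place of the family, behind NFKBIA, NFKB2 and RELA.

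**Figure D2:**
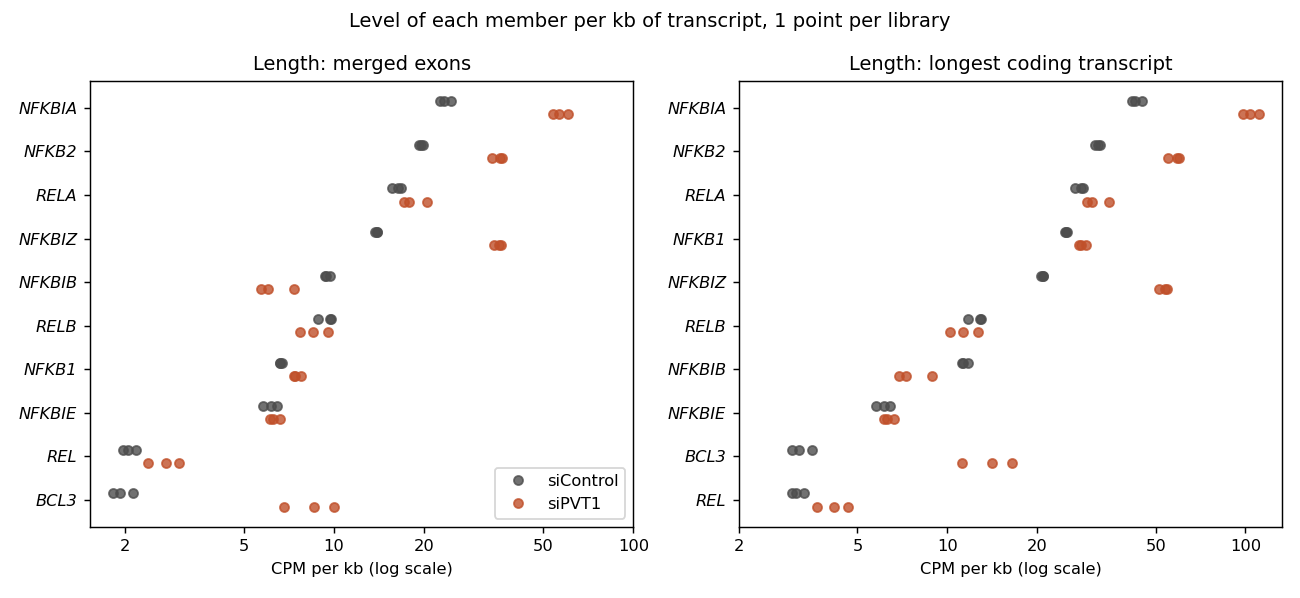
Level of each gene in CPM per kb on a log axis, 1 point per library, with the length taken from merged exons on the left and from the longest coding transcript on the right. NFKBIA and NFKB2 head the order in siControl on both scales, BCL3 and NFKBIZ shift furthest to the right in siPVT1, and NFKB1 changes place with the length used.

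The subunits were examined first. RELA (p65, ENSG00000173039, chr11:65653599-65663090 in GRCh38, minus strand) carries the main transactivation domain of the pathway, and it had 2830.3, 2766 and 2648 normalized counts in the siControl libraries, in the order of replicates 1, 2 and 3 used throughout, and 3458, 3023 and 2907 in siPVT1. Each siPVT1 library lay above each siControl library, by a small margin. The log2 fold change was 0.19 (95% interval 0.010 to 0.36, adjusted p = 0.067 from edgeR), and without siPVT1 replicate 3 it was 0.22 and passed (adjusted p = 0.012). It was 0.095 without siPVT1 replicate 1 (adjusted p = 0.21) and 0.037 with the total count as the scale (adjusted p = 0.70 from edgeR). The annotation places the lncRNA RELA-DT on the opposite strand at the start of RELA, and RELA-DT was higher in siPVT1 (log2 fold change 1.62, SE 0.209). The strand setting of the counting was not given in the sources used here, so reads of overlapping genes may not be separated. RELB (ENSG00000104856, chr19:45001461-45038192, plus strand), the partner of p52 in the non-canonical branch, had 908, 824 and 904 normalized counts in siControl and 886, 790.1 and 718 in siPVT1. The groups overlapped, and the log2 fold change was −0.14 (95% interval −0.35 to 0.074, adjusted p = 0.23). Without siPVT1 replicate 1 it was −0.24 and passed (adjusted p = 0.032).

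REL (c-Rel, ENSG00000162924, chr2:60881491-60931612, plus strand), best known from lymphocytes, had 1090.3, 1160 and 1050.3 normalized counts in siControl and 1619, 1459 and 1276 in siPVT1. The groups did not overlap, as in 65.6% of all tested genes, and edgeR put the rise at 0.40 on the log2 scale (SE 0.095, adjusted p = 0.0070). With the total count as the scale it was 0.25 and did not pass. NFKB1 (ENSG00000109320, chr4:102501330-102617302, plus strand), which encodes p105, had 3206, 3219 and 3260.4 normalized counts in siControl and 3577, 3617 and 3766 in siPVT1. The rise was small and even, at 0.18 on the log2 scale (SE 0.054, adjusted p = 0.021 by edgeR). It no longer passed the adjusted p-value without siControl replicate 1, without siControl replicate 3 or without siPVT1 replicate 2, at log2 fold changes of 0.17, 0.18 and 0.17, and with the total count as the scale it was 0.029.

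NFKB2 (ENSG00000077150, chr10:102394110-102402524, plus strand) encodes p100, the precursor of p52 and the inhibitor of RELB dimers, and was the subunit gene with the largest change. Its normalized counts were 3388, 3324 and 3434 in siControl and 6331, 6230.0 and 5842 in siPVT1. The lowest siPVT1 library lay far above the highest siControl library, and the libraries of either group lay close together. The mean rose from 3382 ± 55.1 to 6134 ± 258 (SD, n = 3 each), a ratio of 1.81. The log2 fold change of 0.86 had a 95% interval from 0.73 to 0.99 (adjusted p = 9.54e-06 from edgeR), just under the 2-fold threshold. For each subunit gene whose groups did not overlap the two-sided exact permutation test gave p = 0.1, the smallest that 3 libraries against 3 allow.

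**Figure D3:**
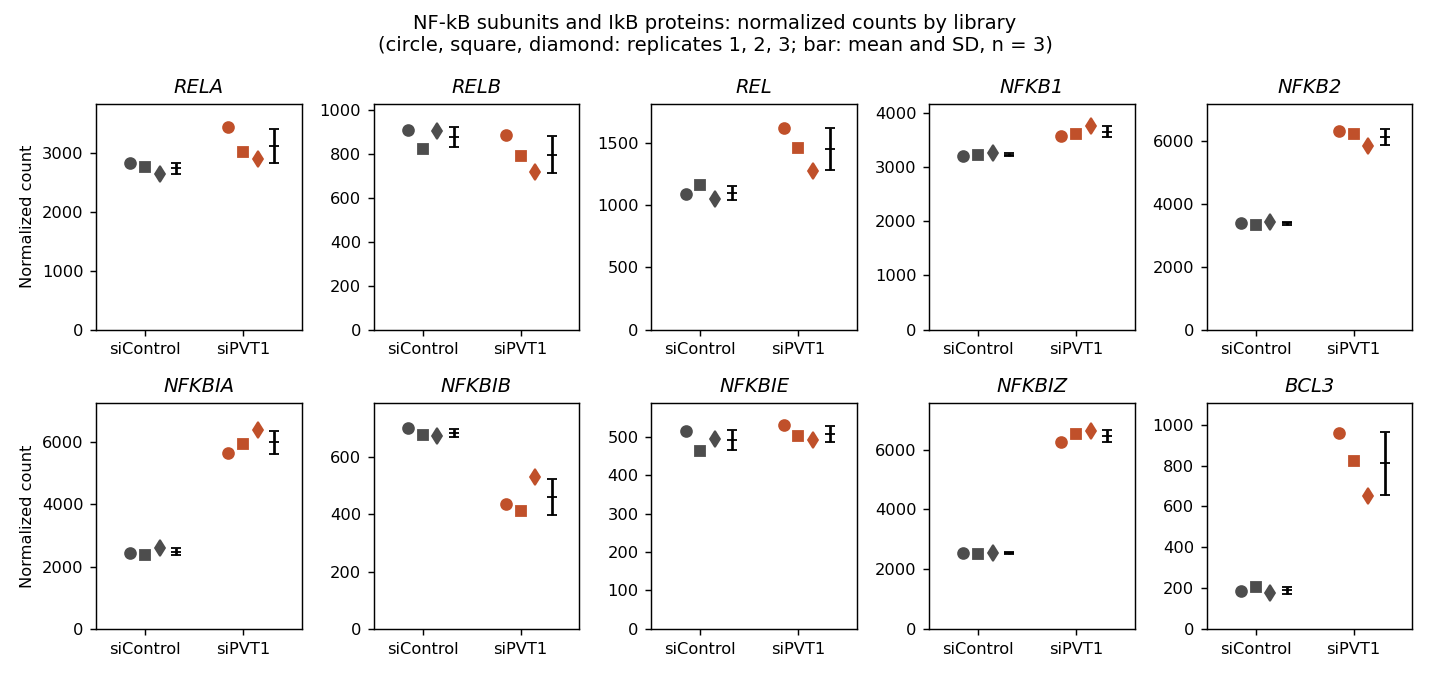
Normalized counts of the 10 genes by library (y axis from 0, 1 panel per gene), with siControl in grey and siPVT1 in orange and the mean and SD (n = 3) beside the points of each group. The groups overlap for RELB and NFKBIE, stand furthest apart for NFKBIA, NFKBIZ and BCL3, and NFKBIB is the only gene with all siPVT1 libraries below all siControl libraries.

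The cytoplasmic inhibitors went different ways. NFKBIA (ENSG00000100906, chr14:35401079-35404749, minus strand) encodes IkB alpha, the inhibitor that NF-kB itself resynthesizes after activation. Its normalized counts were 2447, 2390.0 and 2595 in siControl and 5656, 5950.0 and 6394 in siPVT1. Every siPVT1 library held more than the highest siControl library by a wide gap. The mean rose from 2477 ± 106 to 5999.9 ± 372 (SD, n = 3 each). On the log2 scale this was 1.28 (95% interval 1.12 to 1.43, adjusted p = 3.46e-06 from edgeR). NFKBIB (ENSG00000104825, chr19:38899700-38908893, plus strand), which encodes IkB beta, moved in the opposite direction, with 701, 676 and 673 normalized counts in siControl and 435, 412 and 530.4 in siPVT1. All siPVT1 libraries were below siControl, replicate 3 least so. By edgeR NFKBIB fell by 0.57 on the log2 scale (SE 0.104, adjusted p = 0.0018), and the change was −0.71 without siPVT1 replicate 3. NFKBIB overlaps SIRT2 on the opposite strand, and SIRT2 had a log2 fold change of −0.0022 (95% interval −0.28 to 0.27). NFKBIE (ENSG00000146232, chr6:44258166-44265788, minus strand), which encodes IkB epsilon, had 516, 463 and 493 normalized counts in siControl and 531, 501 and 491 in siPVT1. The groups overlapped, and the log2 fold change of 0.049 had a 95% interval from −0.14 to 0.23 (adjusted p = 0.63). Its sign turned to −0.10 when libraries were scaled by the total count.

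Both nuclear IkB genes rose. NFKBIZ (ENSG00000144802, chr3:101827991-101861022, plus strand) encodes IkB zeta, which binds p50 in the nucleus and is needed for a set of secondary inflammatory genes such as IL6 and LCN2. Its normalized counts were 2549, 2513 and 2552 in siControl and 6248, 6532 and 6631 in siPVT1. Replicates lay close together in both groups, with SDs of 21.8 and 199 around means of 2538 and 6470.2. The log2 fold change was 1.35 (95% interval 1.22 to 1.48, adjusted p = 1.27e-06 from edgeR). The gene NXPE3 overlaps NFKBIZ on the same strand and had a log2 fold change of −0.38 (SE 0.080), the other direction. BCL3 (ENSG00000069399, chr19:44747705-44760044, plus strand) encodes a protein that binds p50 and p52 homodimers and can turn them into activators. It was a gene of low abundance in siControl, with 185, 205 and 175 normalized counts, and had 961, 821 and 652 in siPVT1. The siPVT1 libraries differed more among themselves than for any other of the 10 genes relative to their mean (SD 154 around 811), yet the lowest of them was well above siControl. The log2 fold change was 2.11 (95% interval 1.76 to 2.45, adjusted p = 1.31e-05 from edgeR), and it stayed between 1.95 and 2.23 when 1 library was left out at a time.

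Since the genes moved by different amounts, the make-up of the family's RNA differed between the groups. The values that follow are shares and ratios of levels per kb within a library, given without a test. NFKB2 made up 36.2% ± 0.532 (SD, n = 3) of the summed level of the 5 subunits in siControl and 48.7% ± 1.08 in siPVT1. The share of RELA went from 30.1% ± 0.930 to 25.4% ± 1.03 and that of RELB from 17.5% ± 0.749 to 11.8% ± 0.586. Within the cytoplasmic inhibitors the shift was larger, as NFKBIA held 60.1% ± 1.23 of their summed level in siControl and 81.8% ± 0.803 in siPVT1, and NFKBIB 24.2% ± 0.854 and 9.12% ± 0.785. The ratio of NFKBIA to NFKBIB was 2.39, 2.42 and 2.64 in the siControl libraries and 8.89, 9.89 and 8.25 in those of siPVT1. The ratio of NFKBIA to RELA was 1.39, 1.39 and 1.58 in siControl and 2.63, 3.16 and 3.54 in siPVT1, and that of NFKB2 to RELB was 2.07 ± 0.085 against 4.15 ± 0.278 (SD, n = 3 each). The summed level of the 3 cytoplasmic inhibitors over that of the 5 subunits was 0.720, 0.712 and 0.745 in siControl and 0.863, 0.945 and 1.08 in siPVT1. None of these ratios overlapped between the groups. With the longest coding transcript as the length, NFKB2 held 31.8% ± 0.440 of the subunit level in siControl and 43.4% ± 0.769 in siPVT1, and NFKBIA 71.1% ± 1.06 and 88.2% ± 0.559 of that of the inhibitors.

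**Figure D4:**
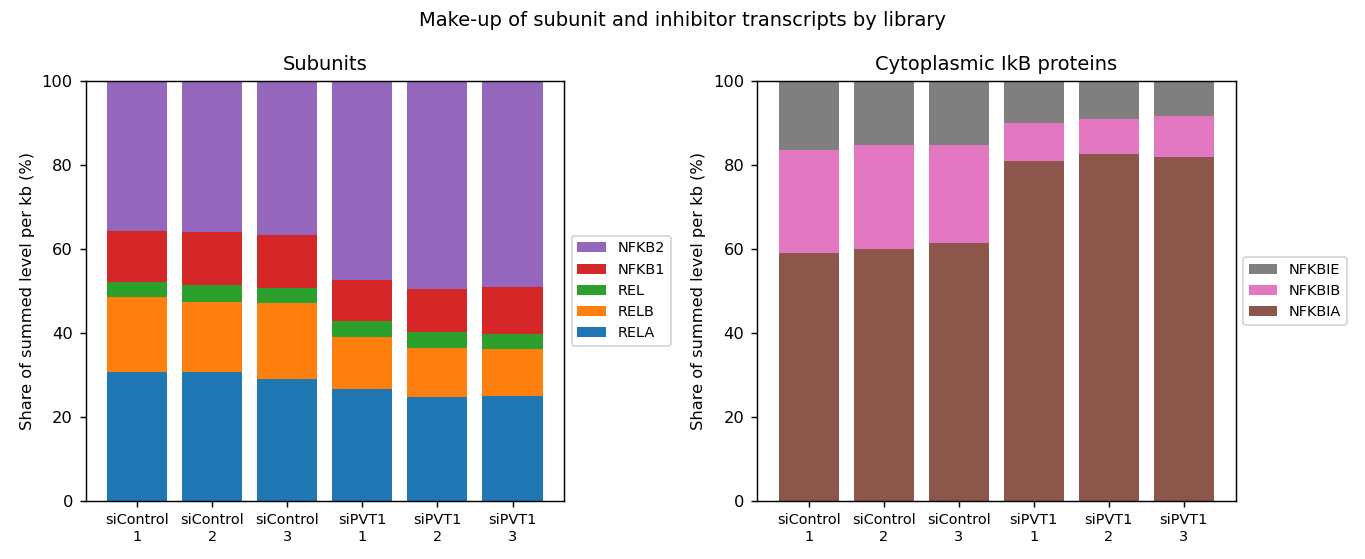
Share of the summed level per kb (%, merged exons) that each gene took within the 5 subunits (left) and within the 3 cytoplasmic IkB genes (right), 1 bar per library. NFKB2 took 36.2% of the subunit level on average in siControl and 48.7% in siPVT1, and NFKBIA 60.1% and 81.8% of the inhibitor level.

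The other genes of the pathway were read from the same comparison, in lists that run from ligands to targets. Of 10 ligand genes 7 were tested, and 5 were called higher and 1 lower (11.8% and 9.64% of all tested genes). IL1B, which encodes interleukin-1 beta, had 6446, 6302 and 6552 normalized counts in siControl and 41648, 45266 and 48161 in siPVT1 (log2 fold change 2.81, SE 0.071). IL1A rose by 1.20 on the log2 scale, TNFSF12 (TWEAK) by 1.45 and TNF by 1.30. TNF was scarce, at 112, 119 and 112 normalized counts in siControl and 198, 280.1 and 366 in siPVT1. TNFSF13B (BAFF) was the remaining gene called higher, at 1.27 (SE 0.378), and was named after its value was seen. It had 4.75, 8.06 and 9.21 normalized counts in siControl. It thus passed the filter on low counts only with siPVT1, the group where it was high, and its call is no support for a rise. Ligand genes called higher numbered 4 with DESeq2 and without siControl replicate 1, siPVT1 replicate 2 or siPVT1 replicate 3. The gene called lower was LTA (lymphotoxin alpha), with 18, 15 and 17 counts in siControl and 0, 3 and 3 in siPVT1, at least 5.09-fold lower when siPVT1 is set at 3 counts per library. LTA passed the filter on low counts through siControl alone, the group where it was high, so its call is no support for a fall among the ligands. Without any 1 of the siControl libraries LTA fell under the filter and 0 ligand genes were called lower.

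Of the 12 receptor genes, all tested, 4 were called higher and 0 lower, where 11.8% and 9.64% of all tested genes were. At an unadjusted p-value under 0.05 edgeR gave 7 higher and 3 lower (31.8% and 30.6% of all tested genes), and DESeq2 with both thresholds gave 0 lower. The 4 were CD40 (log2 fold change 1.16, SE 0.077), TLR2 (3.43, SE 0.292), TNFRSF1B, the second TNF receptor (4.59, SE 0.499), and TLR5 (1.90, SE 0.394). TNFRSF1B stood at 9.50, 7.05 and 9.21 normalized counts in siControl and at 329, 206 and 101 in siPVT1. Its siPVT1 libraries thus ranged widely, all above siControl. The lower receptors by adjusted p-value alone, named after their values were seen, were LTBR at −0.33, TLR3 at −0.79 and TLR4 at −0.52.

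Between receptors and IkB proteins most genes changed by less than 2-fold, as did most of all tested genes (median absolute log2 fold change 0.51). Of 17 adaptor and ubiquitin ligase genes 0 were called in either direction by edgeR or by DESeq2. By edgeR 11.8% of all tested genes were called higher and 9.64% lower. At an unadjusted p-value under 0.05 edgeR gave 7 higher and 8 lower (31.8% and 30.6% of all tested genes), and by adjusted p-value alone 6 were higher and 7 lower (29.5% and 28.4% of all tested genes). The most abundant of them, BIRC2, which encodes the ubiquitin ligase cIAP1, and IRAK1, a kinase at the interleukin-1 receptor, had log2 fold changes of −0.68 (SE 0.057) and −0.93 (SE 0.069). Of 10 kinase and scaffold genes 1 was called, MAP3K14, as lower, and 0 as higher (9.64% and 11.8% of all tested genes). At an unadjusted p-value under 0.05 edgeR gave 2 higher and 5 lower (31.8% and 30.6% of all tested genes). DESeq2 with both thresholds gave 0 higher. MAP3K14 encodes NIK, the kinase that starts the processing of p100. Its normalized counts were 3621, 3544 and 3558 in siControl and 1382, 1353 and 1701 in siPVT1, and edgeR gave −1.27 on the log2 scale (SE 0.092, adjusted p = 1.4e-05). MAP3K14 and NFKB2, whose product NIK acts on, thus lay on opposite sides of siControl. By adjusted p-value alone IKBKB rose by 0.80 on the log2 scale and TAB2 by 0.62, and CHUK, TBK1, IKBKG and TAB1 fell by 0.62, 0.52, 0.46 and 0.45, all named after their values were seen. IKBKB and CHUK encode the catalytic subunits of the IkB kinase, and IKBKG its scaffold.

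Of 11 other negative regulators 2 were called higher and 0 lower (11.8% and 9.64% of all tested genes). At an unadjusted p-value under 0.05 edgeR gave 6 higher and 1 lower (31.8% and 30.6% of all tested genes). DESeq2 with both thresholds gave 0 lower. TNIP1, which helps the deubiquitinase A20, had 8640.1, 7909 and 8651 normalized counts in siControl and 18520.4, 18556 and 18620.0 in siPVT1, a rise of 1.14 on the log2 scale (SE 0.058). PDLIM2, a nuclear ligase that acts on RELA, was at 1.04 (SE 0.16). Without siPVT1 replicate 1 the list had 1 gene called higher. With the total count as the scale it had 0. By adjusted p-value alone CYLD, a deubiquitinase, was the only lower gene of the list, at −0.71, where 28.4% of all tested genes were lower. TNFAIP3, which encodes A20, was at 0.90 without reaching 2-fold. Both were named after their values were seen.

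Most textbook targets of NF-kB other than the 10 genes were higher in siPVT1. Of 26 listed 23 were tested, and 14 were called higher and 1 lower, with a median log2 fold change of 1.39 against 0.0014 over all tested genes, of which 11.8% were called higher and 9.64% lower. Of the 14, CXCL10, CCL5 and LCN2 reached the filter on low counts only through siPVT1, the group where they were high. The median of 1.39 includes these genes, whose log2 fold changes of 2.14, 4.06 and 1.54 lie above it, so it does not describe the other targets alone. In siControl CXCL10 had 1.90, 1.01 and 3.69 normalized counts, CCL5 3.80, 5.04 and 3.69 and LCN2 0.950, 4.03 and 5.53. Their calls are thus no support for a rise among the targets. The count was 12 with the filterByExpr filter, which can also keep a gene through siPVT1 alone. That count is thus not free of such genes. SOD2, the mitochondrial superoxide dismutase, had 10363, 9386 and 10419.7 normalized counts in siControl and 66699, 65508 and 61300.1 in siPVT1 (log2 fold change 2.68, SE 0.070). ICAM1, an adhesion molecule, rose by 3.39 (SE 0.111), CSF2, the growth factor GM-CSF, by 5.31 (SE 0.181) and IER3, a stress-induced survival gene, by 1.39 (SE 0.064). All siPVT1 libraries of these genes lay above siControl. GADD45B, a stress sensor, was the target called lower, with 1669.7, 1407 and 1652 normalized counts in siControl and 909, 756 and 700.0 in siPVT1. Its log2 fold change, with a 95% interval from −1.26 to −0.74, sat at the threshold. The count of lower targets was 0 without siControl replicate 1, siControl replicate 3, siPVT1 replicate 2 or siPVT1 replicate 3 and 2 without siPVT1 replicate 1. The median of the 10 genes themselves was 0.29, and the medians were 1.27 for ligands, 0.44 for receptors, −0.038 for adaptors, −0.21 for kinases and 0.31 for the other negative regulators. The ligand median was the value of TNFSF13B, which passed the filter on low counts only with siPVT1, and it also counts LTA. It is thus no support for a rise among the ligands.

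**Figure D5:**
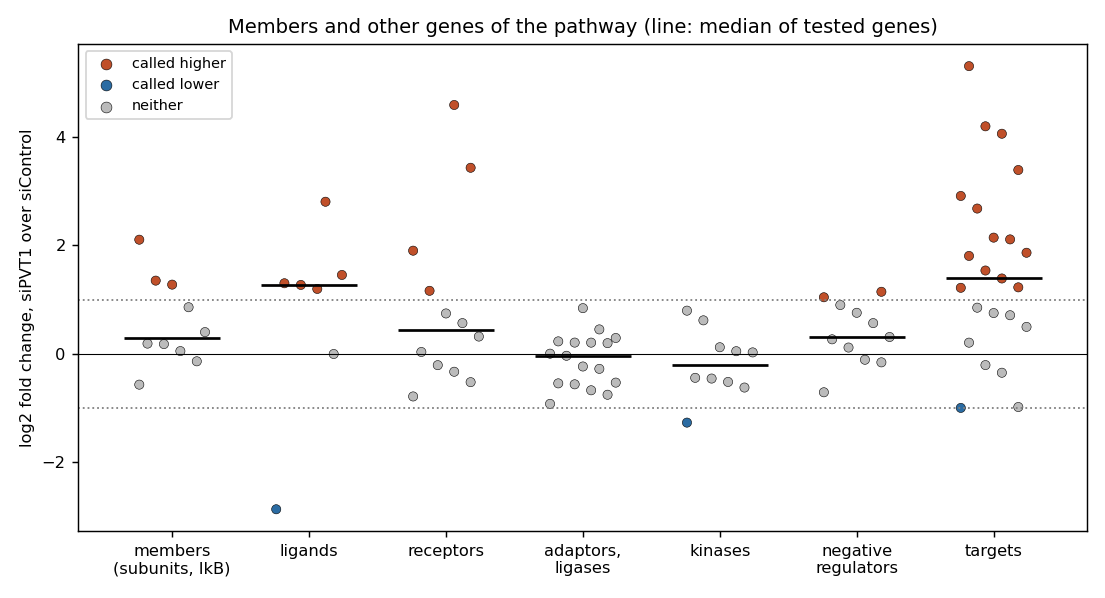
Log2 fold changes in siPVT1 over siControl of the 10 genes and of the tested genes of 6 other lists of the pathway, 1 point per gene, colored by whether the gene passed both thresholds, with a line at the median. Ligands and targets have medians of 1.27 and 1.39, adaptors and kinases medians of −0.038 and −0.21. The ligand median is the value of TNFSF13B and the target median includes CXCL10, CCL5 and LCN2. These genes passed the filter on low counts only with siPVT1, where they were high.

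Markers of the cell line and of other cell types were read in the same libraries. All 8 markers of carcinoma epithelium were detected in both groups, with a summed level from 773 to 876 CPM in siControl and from 922 to 997 CPM in siPVT1. Single genes went different ways, as KRT19 and CLDN4 were called higher (2.30 and 1.64 on the log2 scale) while KRT7 and ERBB2 passed the adjusted p-value at −0.51 and −0.43. CDH1, which encodes E-cadherin, had 12, 43 and 0 counts in siPVT1 against 35, 22 and 28 in siControl. Among leukocyte markers, CD3E had 0 counts in every library and PTPRC no more than 3. The summed level of the leukocyte markers was between 6.44 and 14.2 CPM in siControl and between 0.906 and 3.09 CPM in siPVT1. The upper end of each range came from the library with most LYZ. LYZ had 19, 246 and 5 counts in siControl and 14, 79 and 13 in siPVT1. ITGAM fell by 4.06 on the log2 scale (SE 0.190). Of 6 endothelial and fibroblast markers 4 were called higher, where 11.8% of all tested genes were, namely the 3 endothelial genes CDH5, PECAM1 and VWF and the fibroblast gene PDGFRB. Another fibroblast marker, LUM, had a log2 fold change of −1.15 (adjusted p = 0.13 from edgeR). The 6 had a summed level from 69.0 to 70.2 CPM in siControl and from 286 to 359 CPM in siPVT1. DCN, the remaining fibroblast marker, had no more than 3 counts in any library and was not tested. CDH5, which encodes VE-cadherin, took most of that sum, with a mean of 1993 normalized counts in siControl and 9289.8 in siPVT1. The part of these markers in the changes of the NF-kB genes was not tested.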

How the data were processed

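mRNA libraries of SK-OV3 cells (3 siControl, 3 siPVT1) were sequenced with single-end reads. The authors aligned the reads with STAR 2.7.3a to the GENCODE transcriptome of GRCh38.p13 and quantified them with Salmon 0.14.1 (versions per the submitters' processing notes). The table that the authors deposited holds, for each gene symbol, an estimated count in whole numbers, not normalized. Salmon shares reads between similar transcripts by estimation, and the strand setting was not given in the sources used here.

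Groups and replicate numbers came from the sample titles. Counts were normalized with TMM in edgeR 4.0.16 (R 4.3.3), put on the scale of the geometric mean library, and tested with its quasi-likelihood test on the siRNA across the 19008 genes that reached 5 normalized counts in 3 or more libraries. P-values were adjusted by Benjamini-Hochberg over all of them. A gene was called at an adjusted p under 0.05 when it also changed 2-fold or more (1 on the log2 scale), as in the study. The SE of a log2 fold change is its size divided by the square root of F, and 95% intervals use the t distribution of the same fit. The study used DESeq2, which was run as an alternative (version 1.42.0). At these totals 3 counts were between 2.76 and 3.33 normalized counts, and a fold against a group with at most 3 counts in each library is a lower bound. Gene positions and lengths came from GENCODE v44 on GRCh38. The fits were run on simulated data with the same dispersion for every gene in both groups. That setting lacks the wider spread of the siPVT1 libraries, so it does not check the p-values of these data.

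The 10 genes, the pathway lists and the marker lists were chosen with earlier results of these data known, so the lists are not independent evidence. Named pathway genes are up to 4 called higher and up to 4 called lower per list with the smallest p, or the 2 most abundant where none was called, and others are marked in the text. Alternatives were DESeq2, its size factors, the total count as the scale, filterByExpr in place of the filter, no filter at all, a replicate block, each library left out, the adjusted p alone, a test against a 2-fold change and another transcript length.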

Additional observations from a re-analysis of the deposited data

How the results depend on the processing

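The calls of BCL3, NFKBIZ and NFKBIA as higher held in all alternatives, and the 3 genes called stayed 3 except by the adjusted p alone, which gave 6 higher and 1 lower. Over 12 refits of each of the 10 genes, 109 of 120 log2 fold changes kept their direction and their side of the adjusted p of 0.05. With the total count as the scale, RELB passed at −0.29, REL (0.25) and NFKB1 (0.029) did not, and NFKBIE turned to −0.10, each by about the shift of all genes. NFKB1 also no longer passed the adjusted p without a filter (0.18) and with the replicate block (0.18). Leaving out 1 library at a time gave 0.095 to 0.22 for RELA, −0.24 to −0.084 for RELB and 0.14 to 0.18 for NFKB1.

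The replicate numbers did not pair the libraries. The deviations of same-numbered libraries correlated at −0.037, 0.029 and 0.0023, and 1 of 3 siControl libraries correlated best with its own number. With the block 2158 genes were called higher and 1766 lower, and the calls among the 10 genes were 3 as without it.

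By the adjusted p alone the counts higher and lower were 2 and 5 for kinases, 6 and 7 for adaptors and 6 and 1 for negative regulators. By the same measure 3 receptors and 2 targets were lower. Of all tested genes 29.5% were higher and 28.4% lower by the adjusted p alone. With the total count 1 adaptor and 2 targets were lower and 0 negative regulators higher. Of all 19008 tested genes 1835 were then called higher and 2355 lower. The test against a 2-fold change called 1 negative regulator, 2 receptors and 3 ligands higher and 0 targets lower. Over all 19008 tested genes it called 1184 higher and 792 lower. With 1 library left out, targets called higher numbered 11 to 14, ligands and receptors called higher 4 to 5 each and negative regulators called higher 1 to 2. Ligands called lower numbered 0 to 1 and targets called lower 0 to 2. In the same refits 18302 to 18556 genes were tested, and 1819 to 2198 of them were called higher and 1390 to 2082 lower. The siPVT1 libraries differed more among themselves than the siControl libraries. Over the tested genes the chi-square per degree of freedom between 2 libraries was 8.37 to 44.2 in siPVT1 and 1.71 to 5.58 in siControl. The cause of these differences between settings was not tested. At this depth the 10 genes had at least 175 normalized counts in each library.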
